A study of Mus musculus with 8 samples.

Results

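Cyclic nucleotide phosphodiesterases (PDEs) were examined in bone marrow derived macrophages (BMDMs), with Pde4b as the main gene. The 9 members, Pde4b, Pde4a, Pde4d, Pde2a, Pde3b, Pde7a, Pde7b, Pde8a and Pde1b, were the rows of the count tables with these symbols, 9 of 53735 genes listed. They were chosen by their differences between KO and WT in these same libraries, Pde4b for being lower in KO and the others to stand beside it, so their differences between KO and WT are given as a description, and where members past a threshold are counted, the count is not evidence about them. Macrophages came from 6-month-old male mice that all lacked Apoe, the gene of apolipoprotein E, whose loss raises blood lipids. WT mice were Mkl1+/+, Apoe-/- and KO mice were Mkl1-/-, Apoe-/-, a global deletion of Mkl1 (Mrtfa), which encodes a coactivator of serum response factor. Mice were of C57BL/6J background, and every mouse received angiotensin II (Ang II), a peptide that drives aortic aneurysm in this model, at 1.44 mg/kg/day from an osmotic minipump for 7 days. Bone marrow cells were then differentiated in culture for 7 days, and no library from saline-infused mice was among those analysed. RNA-seq of 8 libraries was run as 2 experiments, each with 2 WT and 2 KO libraries, WT 1, WT 2, KO 5 and KO 6 in experiment 1 and WT 3, WT 4, KO 7 and KO 8 in experiment 2. The labels number the samples from 1 to 8 across the genotypes and do not name the animals, so the spread between libraries may be partly technical.

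PDEs hydrolyse cAMP and cGMP, the second messengers made by adenylyl and guanylyl cyclases. In macrophages, cAMP raised by Gs coupled receptors acts through protein kinase A (PKA) and EPAC and is known to restrain inflammatory cytokine output, and PDE4 enzymes, PDE4B above all, are known to end that signal. The PDE4, PDE7 and PDE8 families act on cAMP, PDE3 acts on cAMP and is inhibited by cGMP, and PDE1 and PDE2 act on both nucleotides, PDE1 under the control of calcium and calmodulin and PDE2 stimulated by cGMP.

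Pde4b lies on the plus strand at chr4:102087543-102607259 (GRCm38, GENCODE M21), with 13 annotated transcripts, and RefSeq places 4 transcription starts within it. The 250 bases before each of these starts are shown, because they are the windows in which a binding motif of a cAMP, inflammatory or MKL1 related factor would first be looked for beside the values of Pde4b. Capitals mark the motif matches found, and each window is given 5′ to 3′ on the plus strand from RefSeq (GRCm38.p6). Window 1 is chr4:102421305-102421554, window 2 is chr4:102569810-102570059, window 3 is chr4:102587308-102587557 and window 4 is chr4:102589593-102589842.
Pde4b window 1: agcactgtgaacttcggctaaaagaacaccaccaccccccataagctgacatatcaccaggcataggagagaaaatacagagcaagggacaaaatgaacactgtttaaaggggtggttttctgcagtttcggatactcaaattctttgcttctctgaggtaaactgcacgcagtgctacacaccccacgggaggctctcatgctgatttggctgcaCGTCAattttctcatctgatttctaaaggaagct
Pde4b window 2: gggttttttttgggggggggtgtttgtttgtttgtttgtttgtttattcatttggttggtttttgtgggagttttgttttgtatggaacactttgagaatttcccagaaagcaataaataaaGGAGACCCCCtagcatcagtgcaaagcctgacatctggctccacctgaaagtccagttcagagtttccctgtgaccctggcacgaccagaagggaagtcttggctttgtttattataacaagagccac
Pde4b window 3: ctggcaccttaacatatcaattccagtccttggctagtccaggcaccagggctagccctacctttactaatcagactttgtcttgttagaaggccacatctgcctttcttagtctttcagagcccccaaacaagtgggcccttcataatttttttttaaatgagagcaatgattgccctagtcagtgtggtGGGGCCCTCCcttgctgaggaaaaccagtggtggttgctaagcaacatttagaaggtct
Pde4b window 4: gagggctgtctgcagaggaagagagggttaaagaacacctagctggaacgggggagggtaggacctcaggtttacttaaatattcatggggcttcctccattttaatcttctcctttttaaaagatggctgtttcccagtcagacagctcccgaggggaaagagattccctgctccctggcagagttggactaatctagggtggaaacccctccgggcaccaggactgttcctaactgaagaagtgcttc
Motifs were searched on both strands: the cAMP response element (CRE) palindrome TGACGTCA, its core TGACG, which is part of the palindrome, the CArG box of serum response factor and the NF-κB consensus. The other members lie at chr9:21165714-21213248 (Pde4a), chr13:108449948-109953461 (Pde4d), chr7:101421691-101512827 (Pde2a), chr7:114415281-114539251 (Pde3b), chr3:19223108-19311322 (Pde7a), chr10:20398004-20725078 (Pde7b), chr7:81213596-81334533 (Pde8a) and chr15:103503034-103530052 (Pde1b) in the same annotation. In Pde4b, window 1 held the CRE core on the minus strand 34 bases before the start, window 2 held the NF-κB consensus 128 bases before it and window 3 held the NF-κB consensus 59 bases before it, while window 4 held none of these motifs. No window of any member held the CRE palindrome or the CArG box. Of 32851 RefSeq windows of this length, 17.77% held the CRE core, 7.251% the NF-κB consensus, 1.546% the CRE palindrome and 1.467% the CArG box. Among the other members, the CRE core was found in the window of Pde8a and in 1 of the 3 windows of Pde4a, and the NF-κB consensus in 1 of the 3 windows of Pde1b. The window of Pde4d, the window of Pde7b and the 5 windows of Pde2a held none, and no entry was matched for Pde3b and Pde7a. These matches describe the letters of the windows and do not show binding.

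Libraries held between 33977799 and 41584540 counts, and 14418 genes passed the filter on low counts. Levels are given as CPM, the count of a gene scaled to a common library size. Mkl1, the targeted gene, had 25.6, 27.1, 26.8 and 29.6 CPM in WT 1 to 4 and 19.5, 20.9, 14.6 and 10.4 CPM in KO 5 to 8. The 4 KO values were all under the 4 WT values (p = 0.0286 in a two-sided exact permutation test, the smallest that 70 arrangements can give). These arrangements ignore the experiments, and with the 36 kept within experiments the exact permutation p was 0.0556, the smallest possible there, so that test cannot pass 0.05. In the edgeR quasi-likelihood fits, Mkl1 was lower in KO of experiment 1, at -0.39 on the log2 scale (standard error 0.081 and adjusted p = 0.0038), also with any library left out, and in KO of experiment 2 by -1.17 (0.19, adjusted p = 0.022), a call lost without WT 3, WT 4 or KO 8. Over both experiments the value was -0.78 (0.19, edgeR adjusted p = 0.057), which did not pass, and 76.7% of the WT level remained in experiment 1 and 44.4% in experiment 2. Which exons were deleted is not given in the sources used here. The 8 macrophage markers were present in every library, with a summed level between 15235 and 36019 CPM. In KO of experiment 1, 3 of them were lower and 4 higher, beside 28.1% and 27.0% of all genes tested. In KO of experiment 2, 2 were lower and 2 higher, beside 8.29% and 7.52%. The lists of neutrophil, dendritic cell and lymphocyte markers each summed to at most 2.87 CPM, with Cd3e at 0 in every library. KO 5 and KO 6 stood apart for fibroblast markers, which summed to 203 and 268 CPM there against 2.16 to 11.9 CPM in the other 6 libraries. All 7 fibroblast markers tested were higher in KO of experiment 1, beside 27.0% of all genes tested. Lum was near 0 in every library and was not tested. The part of the fibroblast markers in the values of the members was not tested. The libraries also did not order by genotype alone. KO of experiment 2 differed from WT of experiment 1 in 18 genes, 0.125% of those tested, whereas KO of experiment 1 differed from WT of experiment 2 in 6375 genes, 44.2%. Whether each pair of libraries belongs to the experiment its labels give was not tested, and the labels were kept. Effects of opposite direction in the experiments depend on which KO pair is set beside which WT pair. For KO of experiment 2 against WT of experiment 1, the log2 differences were -0.09 for Pde10a, 0.01 for Ptger2 and -0.08 for Rapgef3, and for KO of experiment 1 against WT of experiment 2 they were -1.27, 1.04 and 1.71.

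Pde4b mRNA was lower in every KO library than in every WT library. It reached 54.7 and 52.3 CPM in WT 1 and WT 2 and 179 and 166 CPM in WT 3 and WT 4. KO 5 and KO 6 had 8.60 and 8.15 CPM, and KO 7 and KO 8 had 19.0 and 22.0 CPM. The highest KO library thus stayed under the lowest WT library, although the level also differed between the experiments within each genotype. The raw counts behind these values were 318 to 919 in KO and 1784 to 6541 in WT. The level in KO was 6.39-fold lower than in WT in experiment 1 and 8.40-fold lower in experiment 2. The log2 fold change of KO against WT was -2.69 (standard error 0.077) in experiment 1, -3.07 (0.13) in experiment 2 and -2.87 (0.11) over both experiments with the experiment as a term.

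**Figure D1:**
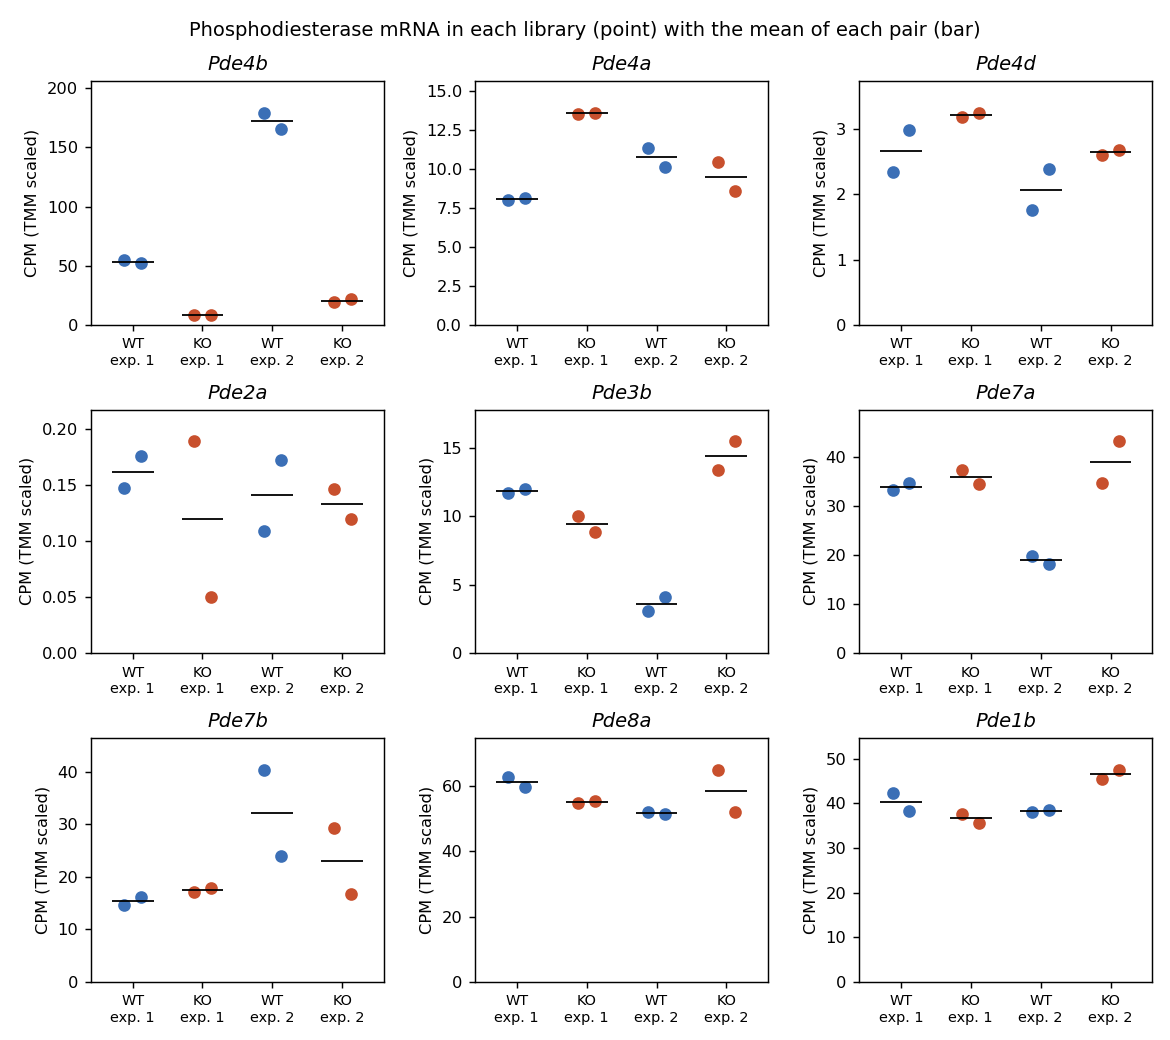
Level of each of the 9 members in CPM (y axis, from 0, a separate scale for each gene) in the libraries of each genotype and experiment (x axis); blue points are WT libraries, orange points KO libraries and black bars the mean of each pair. Pde4b in KO lies between 8.15 and 22.0 CPM and in WT between 52.3 and 179 CPM, while for the other members the points of KO and WT overlap over the 8 libraries.

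The 4 pairs of libraries stood in the order WT of experiment 2 (172 ± 9.72 CPM, SD, n = 2), WT of experiment 1 (53.5 ± 1.64), KO of experiment 2 (20.5 ± 2.13) and KO of experiment 1 (8.38 ± 0.321), and no neighbours in this order overlapped. WT of experiment 2 exceeded WT of experiment 1 by 3.22-fold, a log2 difference of 1.69 (standard error 0.094, edgeR quasi-likelihood test, adjusted p = 0.00022). KO of experiment 2 exceeded KO of experiment 1 by 2.45-fold, a log2 difference of 1.29 (0.099, edgeR quasi-likelihood test, adjusted p = 0.00046). Both differences kept their side of the threshold when any library was left out. The genotype comparison does not enter these tests, but they share their libraries with it, and differences between the experiments cannot be told apart from how each experiment was handled. Pde4b also lay lower in KO of experiment 2 than in WT of experiment 1, the 2 pairs that were most alike over all genes, with a log2 difference of -1.38 (standard error 0.095). In KO of experiment 1 against WT of experiment 2, the log2 difference was -4.36 (0.11). All KO libraries lay below all WT libraries for 6.25% of tested genes and above them for 6.46%. Of the 9 members only Pde4b did so, in the direction it was chosen for.

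The other PDE4 genes did not share this pattern. Pde4a had 8.02 and 8.16 CPM in WT 1 and WT 2, 13.6 in both KO 5 and KO 6, 11.4 and 10.1 in WT 3 and WT 4, and 10.4 and 8.61 in KO 7 and KO 8. KO 5 and KO 6, the libraries with high fibroblast markers, lay above WT in experiment 1, and KO overlapped with WT in experiment 2, with log2 fold changes of 0.74 (standard error 0.10) and -0.18 (0.17). Pde4d was low throughout, at 1.75 to 2.99 CPM in WT and 2.61 to 3.25 CPM in KO, with log2 fold changes of 0.27 (0.20) and 0.36 (0.27). Within each experiment its KO libraries lay above its WT libraries, but the gap was of the size of its error.

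Pde3b and Pde7a were lower in WT of experiment 2 than in the other libraries. For Pde3b, the cGMP-inhibited cAMP phosphodiesterase best known from insulin action in fat and liver, WT 3 and WT 4 had 3.12 and 4.08 CPM, against 11.7 and 12 in WT 1 and WT 2, 10.01 and 8.85 in KO 5 and KO 6, and 13.4 and 15.5 in KO 7 and KO 8. KO was below WT in experiment 1 and 4.01-fold above WT in experiment 2, with log2 fold changes of -0.34 (standard error 0.11) and 2.00 (0.20). For Pde7a, a cAMP-specific enzyme with a known role in lymphocytes, WT 3 and WT 4 had 19.8 and 18.1 CPM, and the other 6 libraries had 33.2 to 43.2 CPM. Its log2 fold changes were 0.07 (0.072) in experiment 1 and 1.04 (0.15) in experiment 2. WT of experiment 2 differed from WT of experiment 1 by -1.72 for Pde3b (0.16, edgeR quasi-likelihood test, adjusted p = 0.00062) and by -0.84 for Pde7a (0.12, adjusted p = 0.0025). These values are a description, since WT 3 and WT 4 also entered the comparison that chose the members. Of all genes tested, 31.1% passed between the experiments in WT and 32.8% in KO. Between KO pairs, Pde3b was higher in experiment 2 by 0.62 (0.15, adjusted p = 0.021), which no longer passed without KO 5, KO 6 or KO 8, and Pde7a differed by 0.12 (95% interval from a normal distribution -0.11 to 0.35, adjusted p = 0.46).

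Pde7b, the other cAMP-specific PDE7 enzyme, varied between replicates in experiment 2. It had 14.7 and 16.1 CPM in WT 1 and WT 2, 17.1 and 17.9 in KO 5 and KO 6, 40.4 and 24.04 in WT 3 and WT 4, and 29.3 and 16.8 in KO 7 and KO 8. The ranges of KO and WT overlapped in experiment 2, where the standard error of its log2 fold change of -0.48 was 0.37 and the value went from -0.94 without KO 7 to -0.063 without WT 3, and in experiment 1 the log2 fold change was 0.17 (0.094). Pde8a, a cAMP-specific enzyme of high affinity, was nearly level, with 51.4 to 62.9 CPM in WT and 52.0 to 65.0 CPM in KO, and log2 fold changes of -0.17 (0.061) and 0.18 (0.14). Pde1b, the calmodulin-dependent member, had 38.0 to 42.2 CPM in WT, 37.7 and 35.6 CPM in KO 5 and KO 6, and 45.5 and 47.5 CPM in KO 7 and KO 8, with log2 fold changes of -0.15 (0.074) and 0.28 (0.10). Pde2a had 2 to 7 counts per library, at most 0.189 CPM, and was not tested. At this depth no difference between groups could be seen for it, and its region holds another gene model on the same strand, Gm45837, so its reads may be shared. Exons of Pde7a and Pde8b overlap in part those of a gene model on the opposite strand (Gm16093 and Gm48420). The libraries were made with a stranded kit, and the strand setting of the counting is not given in the sources used here.

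Over the members, 8 of 9 passed the filter on low counts. In experiment 1, 4 of these passed an adjusted p of 0.05 in the edgeR quasi-likelihood fit, Pde4b, Pde3b and Pde8a as lower and Pde4a as higher in KO, beside 55.1% of all genes tested (28.1% lower and 27.0% higher). Without WT 1, WT 2 or KO 6, 2 of them passed. In experiment 2, 3 passed, Pde4b as lower and Pde3b and Pde7a as higher, beside 15.8% of all genes (8.29% lower and 7.52% higher), and without KO 8 only Pde4b passed. Over both experiments Pde4b alone passed, beside 7.12% (3.41% lower and 3.72% higher). The difference of the KO effect between the experiments passed for Pde4b, Pde4a, Pde3b, Pde7a and Pde1b, beside 41.6% of all genes, and 3 of these passed without WT 1 or without KO 6. Nothing is read from these counts, since the comparison of KO with WT had chosen the members. The median log2 fold change over the 8 members was -0.04 in experiment 1 and 0.23 in experiment 2, beside 0.01 and 0.01 over all genes tested.

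**Figure D2:**
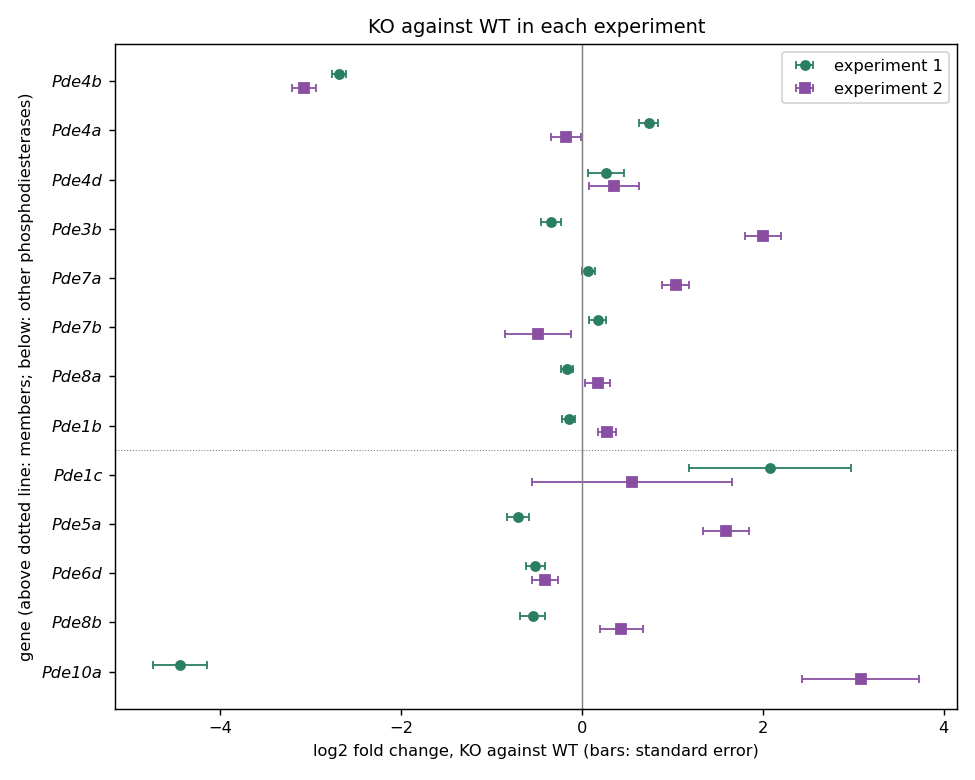
Log2 fold change of KO against WT (x axis) with its standard error (bars) for the 8 members that passed the filter, above the dotted line, and 5 other phosphodiesterase genes, below it, in experiment 1 (green circles) and experiment 2 (purple squares). Pde4b lies at -2.69 and -3.07, and Pde10a lies at -4.44 in experiment 1 and 3.08 in experiment 2.

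Between the experiments, within a genotype, 5 of the 8 members passed the test in WT and 4 in KO, beside 31.1% and 32.8% of all genes tested. In WT, Pde4b, Pde4a and Pde7b were higher and Pde3b and Pde7a lower in experiment 2, and without WT 1, WT 2, WT 3, KO 5 or KO 6 the count was 3. In KO, Pde4b, Pde3b and Pde1b were higher and Pde4a lower in experiment 2, and without KO 5, KO 6 or KO 8 Pde4b alone passed. Pde4a thus differed in opposite directions, by 0.41 (standard error 0.13, edgeR adjusted p = 0.048) in WT and by -0.51 (0.13, edgeR adjusted p = 0.022) in KO. The first of these lay close to the threshold and passed in no fit that left out a library other than KO 7 or KO 8, nor with DESeq2, limma-voom, upper-quartile scaling or another filter.

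Levels of different genes were set side by side only per length, as TPM, the CPM of a gene divided by the length of the union of its exons and scaled to a common sum. Among 24 phosphodiesterase genes, Pde4b ranked 4th in WT of experiment 1 with 15.7 TPM, 1st in WT of experiment 2 with 49.3 TPM, 8th in KO of experiment 1 with 2.55 TPM and 5th in KO of experiment 2 with 6.24 TPM. Pde8a was 1st or 2nd in every group, with 38.7 to 46.9 TPM. These ranks depend on the length used: with the longest transcript, Pde4b was 3rd, 1st, 7th and 5th in the same order, and Pde8a was 3rd in WT of experiment 2 and 1st in the other groups. Pde1b had 21.4 to 27.7 TPM, Pde7a 7.38 to 16.2 TPM, Pde7b 3.83 to 7.75 TPM, Pde4a 3.27 to 5.70 TPM and Pde3b 1.20 to 5.09 TPM. Pde4d stayed under 1 TPM and Pde2a at or under 0.082 TPM in the mean of every group with the exon union.

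Pde4b held a larger share of the PDE4 message in WT than in KO. Its share of the summed TPM of Pde4a, Pde4b, Pde4c and Pde4d was 80.5% and 79.0% in WT 1 and WT 2 and 91.2% and 91.1% in WT 3 and WT 4. In KO 5 and KO 6 it was 28.3% and 27.2%, so Pde4a held the larger part there, and in KO 7 and KO 8 it was 53.1% and 60.8%. Of all 24 genes, Pde4b held 10.9%, 10.6%, 30.7% and 28.7% in WT 1 to 4 and 2.14%, 2.01%, 3.87% and 4.66% in KO 5 to 8. The summed level of all 24 was 145 to 171 TPM in WT and 121 to 147 TPM in KO, so the genotypes overlapped with the exon union as length. With the longest transcript it was 169 to 232 TPM in WT and 133 to 163 TPM in KO, without overlap. Without Pde4b the sum in experiment 1 was 129 and 132 TPM in WT 1 and WT 2 and 119 and 122 TPM in KO 5 and KO 6. In experiment 2 it was 111 and 122 TPM in WT 3 and WT 4 and 141 and 139.5 TPM in KO 7 and KO 8. The rest of the family thus lay lower in KO in experiment 1 and higher in KO in experiment 2, a difference that was not tested. With the longest transcript in place of the exon union, the share of Pde4b within PDE4 was 83.1% to 93.6% in WT and 33.7% to 67.3% in KO, and its share of all 24 genes was 17.7% to 43.5% in WT and 3.63% to 8.20% in KO. In bulk RNA, fewer cells that express a gene and less of its RNA per cell cannot be told apart.

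**Figure D3:**
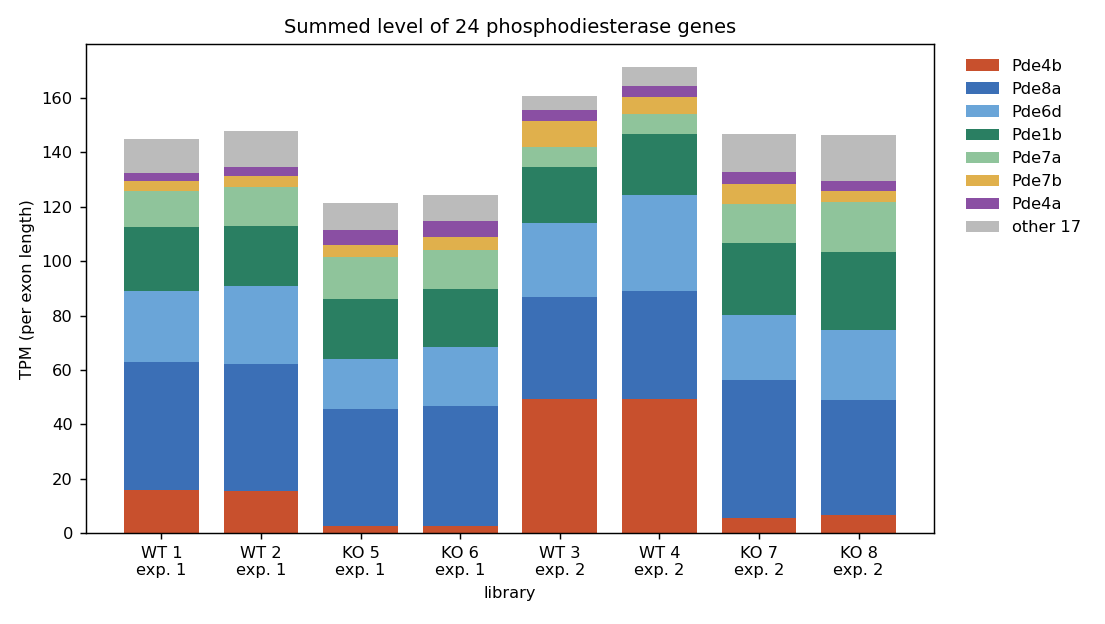
Summed level per length of 24 phosphodiesterase genes (y axis, TPM from 0) in each library (x axis), stacked by gene. The orange part at the base, Pde4b, is 15.6 to 49.4 TPM in WT and 2.50 to 6.82 TPM in KO, while the rest of the stack is 111 to 132 TPM in WT and 119 to 141 TPM in KO.

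Of 15 phosphodiesterase genes outside the members, 5 passed the filter. In experiment 1, 4 of these were lower in KO and none higher, and in experiment 2, 2 were higher and none lower (edgeR quasi-likelihood test), beside 28.1% of all genes lower in experiment 1 and 7.52% higher in experiment 2. Pde10a, which hydrolyses both nucleotides and is best known from the striatum, changed most. It had 5.38 and 5.93 CPM in WT 1 and WT 2, 0.16 and 0.35 in KO 5 and KO 6, 1.01 and 0.23 in WT 3 and WT 4, and 4.42 and 6.21 in KO 7 and KO 8. Its log2 fold change was -4.44 (standard error 0.30, edgeR adjusted p = 1.2e-05) in experiment 1 and 3.08 (0.65, edgeR adjusted p = 0.040) in experiment 2, and the second did not pass without KO 7 or without KO 8. It was thus high in WT of experiment 1 and KO of experiment 2 and low in the other pairs. Pde5a, the cGMP-specific enzyme blocked by sildenafil, moved the same way, by -0.71 (0.12, edgeR adjusted p = 0.0016) and 1.59 (0.25, edgeR adjusted p = 0.021), and lost the second call without WT 3, KO 7 or KO 8.

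Pde6d, a prenyl-binding chaperone that is not itself catalytic, was the only other gene of the family with every KO library below every WT library. It had 12.6 to 17.2 CPM in KO and 18.5 to 24.6 CPM in WT. Of all genes tested, 6.25% lay wholly below in this way. Its log2 fold change was -0.52 (standard error 0.10, edgeR adjusted p = 0.0036) in experiment 1, -0.41 (0.14, edgeR adjusted p = 0.11) in experiment 2 and -0.46 (0.096, edgeR adjusted p = 0.036) over both, the last of which passed only with every library or without WT 3. Pde8b, close kin of Pde8a, was lower by 0.55 in experiment 1 on the log2 scale (edgeR adjusted p = 0.012; 0.44 higher in experiment 2, adjusted p = 0.25), and lost its call without WT 1. Pde1c had 4 to 91 counts per library and its log2 fold changes of 2.08 and 0.55 had standard errors of 0.90 and 1.10. The other 10, Pde1a, Pde3a, Pde4c, Pde6a, Pde6b, Pde6c, Pde6g, Pde6h, Pde9a and Pde11a, had at most 20 counts in any library and were not tested.

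The rest of the cyclic nucleotide pathway was described with lists of 78 genes, of which 57 passed the filter. In experiment 1, 20 were lower and 12 higher in KO (56.1% called, beside 55.1% of all genes), and in experiment 2, 6 were lower and 11 higher (29.8%, beside 15.8%). The count in experiment 2 fell from 17 to 6 without WT 3, 11 without WT 4, 8 without KO 7 and 3 without KO 8. Over both experiments, 3 were lower and 3 higher (10.5%, beside 7.12%), and the 6 fell to 1 without WT 1, WT 3 or KO 6 and to 2 without WT 2, WT 4, KO 5 or KO 7. Of the genes called in both experiments, 4 moved the same way and 5 moved in opposite ways. Over all genes tested, 632 moved the same way and 914 in opposite ways. Some genes counted as higher in experiment 1 were high in KO 5 and KO 6, the libraries with high fibroblast markers, and low in the other 6 libraries, and 3 of them are named here after their values were seen. Adcy6, an adenylyl cyclase, had 4.63 and 5.07 CPM in KO 5 and KO 6 and 0.168 to 0.488 CPM elsewhere. Akap12, a PKA anchor, had 14.1 and 12.4 CPM against at most 2.96 CPM, and Vipr1, a receptor for vasoactive intestinal peptide, 4.63 and 2.60 CPM against 0.384 to 0.863 CPM. The part of the fibroblast markers in these counts was not tested.

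Among 11 Gs coupled receptors, which raise cAMP, 8 were tested. In experiment 1, 5 were lower and 1 higher in KO, and in experiment 2, 4 were lower and 1 higher. For this list and those that follow, the shares over all genes were 28.1% lower and 27.0% higher in experiment 1 and 8.29% lower and 7.52% higher in experiment 2. Adora2a, the adenosine receptor A2a, fell in both experiments, from 2.68 and 2.44 CPM in WT 1 and WT 2 to 0.271 and 0.275 in KO 5 and KO 6, and from 11.7 and 8.19 in WT 3 and WT 4 to 1.73 and 1.80 in KO 7 and KO 8. No KO library reached the lowest WT library. Of the 57 pathway genes tested, 3 lay below in this way and 4 lay above, beside 6.25% and 6.46% of all genes tested. The log2 fold change of Adora2a was -3.23 (standard error 0.27, edgeR adjusted p = 3.8e-05) in experiment 1, -2.49 (0.25, edgeR adjusted p = 0.0089) in experiment 2 and -2.82 (0.22, edgeR adjusted p = 0.0019) over both. In experiment 2 the call was lost without KO 8 at a log2 fold change of -2.52. Adora2b, the A2b receptor, was lower by -0.76 (0.25, edgeR adjusted p = 0.036) and -1.49 (0.34, edgeR adjusted p = 0.043), both near the threshold, and lost its call in experiment 1 without WT 1, KO 5 or KO 6 and in experiment 2 without WT 3, WT 4 or KO 8. Ptger2, the prostaglandin E2 receptor EP2, moved in opposite ways, by -1.34 (0.13, edgeR adjusted p = 8.9e-05) and 2.38 (0.17, edgeR adjusted p = 0.0050).

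**Figure D4:**
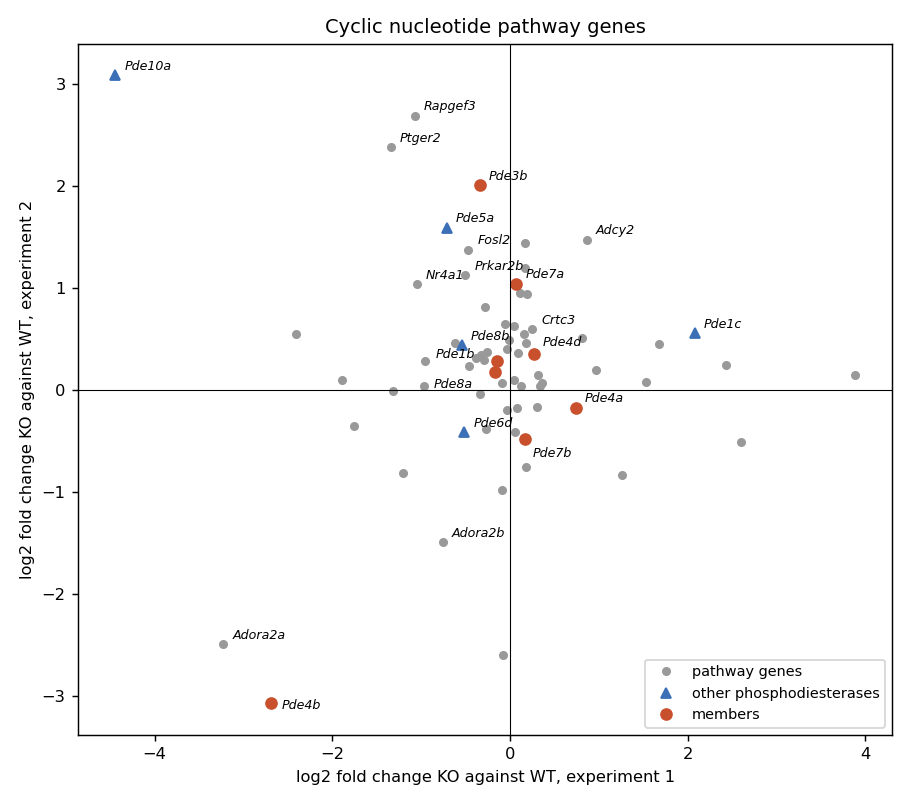
Log2 fold change of KO against WT in experiment 1 (x axis) and experiment 2 (y axis) for 57 cyclic nucleotide pathway genes (grey), 5 other phosphodiesterases (blue triangles) and the 8 tested members (orange), each point a gene and named where the text gives its values. Pde4b (-2.69 and -3.07) and Adora2a (-3.23 and -2.49) lie together at the lower left, and Pde10a, Rapgef3 and Ptger2 lie at the upper left, lower in experiment 1 and higher in experiment 2.

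Of 19 cyclases and G protein subunits, 9 were tested, with 1 lower and 3 higher in KO of experiment 1 and 2 higher in KO of experiment 2. Adcy2, an adenylyl cyclase, was higher in both, by 0.87 (standard error 0.16, edgeR adjusted p = 0.0057) and 1.47 (0.25, edgeR adjusted p = 0.024), and lost the second call without WT 3, WT 4 or KO 7. Of 18 PKA subunits, inhibitors and anchors, 17 were tested, with 5 lower and 5 higher in experiment 1 and 3 higher in experiment 2. Prkar2b, a regulatory subunit of PKA, moved in opposite ways, by -0.50 (0.12, edgeR adjusted p = 0.012) and 1.12 (0.22, edgeR adjusted p = 0.031), and lost its first call without KO 5 and its second without WT 3, KO 7 or KO 8. Of 10 other effectors and exporters, 6 were tested, with 2 lower and 1 higher in experiment 1 and 1 each way in experiment 2. Rapgef3, which encodes EPAC1, the cAMP-gated exchange factor for Rap, changed by -1.07 (0.20, edgeR adjusted p = 0.0024) and 2.69 (0.31, edgeR adjusted p = 0.012), the second lost without KO 8.

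All 10 CREB factors and coactivators were tested, with 2 lower and 2 higher in experiment 1 and 1 lower and 2 higher in experiment 2. Crtc3, a coactivator of CREB, was higher in both, by 0.25 (standard error 0.087, edgeR adjusted p = 0.040) and 0.60 (0.13, edgeR adjusted p = 0.039), small changes that each lost their call whichever library of their experiment was left out. Of 10 CREB target genes, 7 were tested, with 5 lower and none higher in experiment 1 (beside 28.1% of all genes lower and 27.0% higher) and 2 higher and none lower in experiment 2 (beside 7.52% and 8.29%). Nr4a1, an immediate early nuclear receptor, changed by -1.05 (0.20, edgeR adjusted p = 0.0023) and 1.03 (0.25, edgeR adjusted p = 0.049), and Fosl2, an AP-1 factor, by -0.47 (0.11, edgeR adjusted p = 0.0098) and 1.37 (0.12, edgeR adjusted p = 0.0063). The second call of Nr4a1 was lost whichever library of experiment 2 was left out, and the first call of Fosl2 without WT 1.

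The genes whose levels followed Pde4b most closely over the 8 libraries were Mocs1, Irak2, Pmpca, Pfn1 and Nr1h3, chosen by Pearson's r of log2 CPM among 9071 genes whose mean log2 CPM was 3 or more. The r was 0.995 for Mocs1, a molybdenum cofactor gene, 0.994 for Irak2, a kinase of Toll-like receptor signalling, 0.993 for Pmpca, a mitochondrial processing peptidase subunit, 0.993 for Pfn1, profilin 1, and 0.992 for Nr1h3, the liver X receptor LXRα. These values are a description, since the 8 libraries are 4 pairs that share genotype and experiment, and with any library left out the lowest r was 0.9897, for Nr1h3. All 5 genes had the order of Pde4b, highest in WT of experiment 2 and lowest in KO of experiment 1, but over a smaller fold from the lowest to the highest library. Irak2 went from 35.7 CPM in KO 5 to 235 CPM in WT 3, and Nr1h3 from 9.85 CPM in KO 6 to 122 CPM in WT 4. Pfn1 moved by a smaller fold, from 392 CPM in KO 5 to 826 CPM in WT 3.

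**Figure D5:**
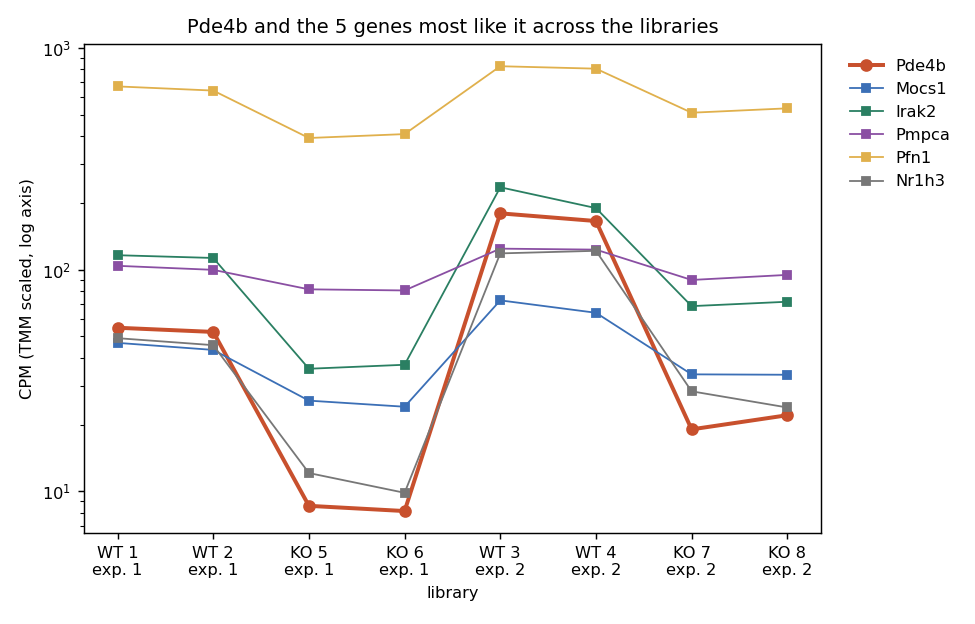
Level in CPM (y axis, log scale) of Pde4b and of the 5 genes with the highest Pearson's r to it in each library (x axis), with lines joining the libraries of a gene only to guide the eye. All 6 lines are highest in WT 3 and WT 4 and lowest in KO 5 and KO 6, and Pde4b spans the widest fold range of the 6, from 8.15 to 179 CPM.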

How the data were processed

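RNA-seq measured mRNA in 8 libraries of BMDMs, grouped by the genotype and experiment in the sample labels. Per the labels, the submitters' processing notes name GRCm38, STAR 2.7.0f, Subread 1.6.4 with featureCounts, and DESeq2 1.22.1. The annotation and strand setting are not given in the sources used here. Raw counts of reads on each gene, as the authors deposited them, entered every test. The authors also deposited normalized counts, a signal equal to the deposited counts divided by a factor set within each experiment, which were used only to check the unit. Counts differed between replicate libraries by more than counting noise.

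The 2 experiments were compared separately, as in the series design, with edgeR 4.0.16 in R 4.3.3 (filterByExpr by genotype, TMM, robust quasi-likelihood fit, Benjamini-Hochberg adjustment over 14418 genes, threshold 0.05). Fits over both experiments used the experiment as a term, or 4 groups for the difference of effects and for comparisons within a genotype. Standard errors were obtained as the absolute log2 fold change over the square root of the F statistic. CPM used TMM library sizes, and log2 CPM a prior count of 2. TPM used exon lengths of GENCODE M21. The fits were run on simulated counts with added changes, as a check of the code. Those counts had the same spread for every gene and no other difference between the experiments, so they do not give the error rate in these data. Named genes were the members, other phosphodiesterases that passed the filter, up to 3 genes of each pathway list called the same way in both experiments and up to 2 called in opposite ways, Mkl1 and the 5 genes most like Pde4b. Adcy6, Akap12 and Vipr1, and the markers Cd3e and Lum, were named outside these rules after their values were seen. The members, lists and rules were chosen with earlier results of these data known. Alternatives were DESeq2 1.42.0, limma-voom (limma 3.58.1), upper-quartile scaling, other filters, other experiment terms, arrangements within experiments for Mkl1 (chosen after seeing the data), transcript length and each library left out.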

Additional observations from a re-analysis of the deposited data

Results flagged for a closer look

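Differences of the KO effect between the experiments are given as the log2 fold change of experiment 2 minus that of experiment 1, for genes past the threshold in the edgeR interaction test. For the members they are a description, since the members were chosen by their differences between KO and WT. Pde4b differed by -0.39 (standard error 0.14), at the threshold, and passed only without WT 4 or KO 8 among the fits that leave out a library, and not with DESeq2, limma-voom or another filter. Among the other members, the difference was -0.93 for Pde4a, 2.33 for Pde3b, 0.96 for Pde7a and 0.42 for Pde1b. Mkl1 itself differed by -0.79, and this passed in only 3 of the 8 fits that leave out a library, not without WT 1, WT 2, WT 4, KO 5 or KO 6. The difference of Pde1b did not pass without WT 1 or KO 6. Of the other phosphodiesterases, Pde5a differed by 2.29, Pde8b by 0.97 and Pde10a by 7.51, and Pde8b did not pass without WT 1, WT 2, KO 5 or KO 6. The pathway genes given here were named because they were called in opposite ways in the experiments, so their differences restate that choice. Ptger2 differed by 3.70, Rapgef3 by 3.74, Nr4a1 by 2.07, Fosl2 by 1.83 and Prkar2b by 1.61. These comparisons have 2 libraries in each group, and 41.6% of all genes tested passed the same test.

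The 9 members, Mkl1 and 5 other phosphodiesterases were screened for single libraries that stood apart, in WT and in KO. This was seen in 2 groups of 4. Pde7b had 29.3 CPM in KO 7, and its gap to the nearest KO library was large beside the range of the KO libraries. Pde1b had 42.2 CPM in WT 1, likewise apart from WT 2, WT 3 and WT 4. Chance flags about 1 in 20 groups of 4 like libraries. Each group here joins libraries of 2 experiments, so that rate is only a rough guide.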

How the results depend on the processing

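The difference of Pde4b between KO and WT is a description, since the gene was chosen by it, and its values under the alternatives are given as such. Over both experiments its log2 fold change was -2.97 without an experiment term and -2.86 when KO 5 and KO 6 traded experiments with KO 7 and KO 8, an alternative chosen after seeing the data. In both of these edgeR fits 0 members and 0 pathway genes passed the adjusted threshold, beside 4 and 26 of all genes tested. At an unadjusted p under 0.05 there were 1 and 4 members and 16 and 27 pathway genes. The share of all genes at that unadjusted p was not recorded, so nothing is read from these counts. No other tool was run with these terms. The mean effect in the fit of 4 groups called 4 members and 30 pathway genes, and DESeq2 called 12 pathway genes. In experiment 1, DESeq2 and the fit of 4 groups each called 2 members, and in experiment 2 the fit of 4 groups called 28 pathway genes. The share of all genes called was not recorded for these alternative fits, so nothing is read from their counts. The difference of the KO effect of Pde4b did not pass with DESeq2 (-0.39), limma-voom (-0.40), no filter (-0.37) or at least 10 counts in every library (-0.38). The mean of Mkl1 in KO minus that in WT, -10.9 CPM, had an exact permutation p of 0.0556 with arrangements kept within experiments, an alternative chosen after seeing the data. The causes were not tested.

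With each library left out in turn, members called ranged from 2 to 3 in experiment 1, 1 to 3 in experiment 2, 3 to 6 for the difference of the effect, 3 to 6 in WT and 1 to 4 in KO between the experiments. Pathway genes called ranged from 3 to 11 in experiment 2, 1 to 4 over both, 13 to 33 in WT and 9 to 23 in KO between the experiments. The difference of the effect of Pde4b ranged from -0.50 to -0.25 and passed in 2 of 8 such fits. Pde1c in experiment 2 ranged from -1.60 to 1.97 and Pde7a in KO between the experiments from -0.046 to 0.28, both changing direction. Fits that leave 1 library in a group assume that it varies like the others. The share of all genes called was not recorded for them, so their counts, here and above, show only how far the calls moved. Of 1026 values under alternatives, taken for the results kept for this text, 839 were labelled unchanged and 3 changed direction. Unchanged meant the same direction and side of the threshold for tests, and a similar count for counts. For likeness it meant an r that stayed high, and for TPM a move of less than the spread. With the longest transcript as length, TPM moved by more than the spread for 10 of 16 values. No paired analysis was possible because WT libraries are numbered 1 to 4 and KO libraries 5 to 8, so no number is shared.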
